A study of Rattus norvegicus with 17 samples.

Results

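The proteasome subunit and assembly genes of the rat array were described in spinal cord neurons that regenerated an axon, that were axotomised and did not regenerate, or that were not axotomised. The members were all probe sets with a single gene symbol made of Psm, a letter a to g and a number, leaving out the immunoproteasome genes Psmb8, Psmb9 and Psmb10 and the PA28 genes Psme1 and Psme2. This gave 52 probe sets of 39 genes, of 14218 genes with a symbol of their own on the array, and 48 of the 52 probe sets, with at least 1 for every gene, passed the filter on dim signals. Each gene is given at its brightest probe set unless another is named. Psmb6, 1 of the catalytic subunits, and Psme3 lay on probe sets with several gene symbols and were not analysed here.

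Regenerating and non-regenerating neurons came as pairs from 7 rats (5 with the name prefix MM and 2 with the prefix MOON), and the traced, not axotomised neurons came from 3 other rats, MM15, MM18 and MM19. All 3 groups consisted of retrogradely labelled spinal cord neurons, 1000 per sample, cut out by laser from 10 µm sections of unfixed cord, and their RNA was amplified in 3 rounds before hybridisation to 1 array per sample. The labels gave no strain, age, sex, injury type or survival time, and MM15 was labelled a high yield replicate. The label of neurons rests on tracing and capture. Signals of the 10 neuron markers were bright in every group. They summed to 16170 to 28444 in regenerating, 14851 to 42702 in non-regenerating and 20198 to 44812 in traced neurons. Markers of other cell types were bright as well. The 6 astrocyte markers summed to 11495 to 19052 in regenerating, 11037 to 18717 in non-regenerating and 10494 to 11592 in traced neurons. The 5 tested oligodendrocyte markers summed to 6785 to 11089 in regenerating, 6810 to 10926 in non-regenerating and 7282 to 9052 in traced neurons. What share of the captured RNA came from neurons was not tested.

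The proteasome is the main protease of the cytoplasm and nucleus and degrades proteins tagged with ubiquitin. Its 20S core is a barrel of stacked rings, in which the outer alpha subunits gate the entry and the inner beta subunits carry the cutting sites. The 19S cap has a base of ATPases that unfold the substrate and a lid that removes ubiquitin, and dedicated chaperones assemble both. In neurons the complex works in the cell body, along axons and at synapses, where protein turnover accompanies growth and plasticity. When proteasome activity falls, mammalian cells raise the transcription of many of its genes together through the factor Nfe2l1 (Nrf1), which binds antioxidant response elements.

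Promoters from RefSeq (build GRCr8, 250 bases before to 50 after the annotated start) were given for 35 of the 39 genes, and Psma7, Psmd6, Psmd12 and Psmd14 had no entry. The core of the antioxidant response element, searched as TGACNNNGC on both strands, was present in 7 of 35 members (20%) and in 12.2% of all 27457 promoters of that length. GGGCGG, the GC box, was present in 25 members (71.4%) and 34.9% of all promoters, CCAAT in 18 members (51.4%) and 37.7%, and the cyclic AMP response element TGACGTCA in 1 member, Psmb2, and 1.91%. The members' promoters had a median GC content of 56%, against 52.3% for all promoters. The 7 genes with TGACNNNGC were Psma3, Psmb2, Psmb5, Psmd1, Psmd3, Psmd9 and Psme4. Among these 7, Psmd1 had the smallest p of the members between regenerating and non-regenerating neurons. The largest difference there was that of Psmb7, which had no match. Psme4 had the largest difference between non-regenerating and not axotomised neurons. Psmb2 had the largest difference between regenerating and not axotomised neurons, 1.02, which was 0.41 without MM15. The smallest p in that comparison was that of Psmf1, which had no match. The same 7 include Psmd9, the lowest member in both comparisons with traced neurons, and the differences of Psmd9, Psmd3 and Psma3 lay below 0 in all 3 comparisons. Between regenerating and non-regenerating neurons, those of Psmd9 and Psmd3 were 0.01 without animal MM17, while that of Psma3 stayed below 0. The 250 bases before the start of Psmd1, Psme4 and Psmb2, all on the plus strand, are given 5′ to 3′. Each match to TGACNNNGC, or to its reverse complement, is in capitals. The match starts at position -165 in Psmd1, -55 in Psme4 (minus strand) and -68 in Psmb2, counted from the annotated start as 0.
Psmd1 (chr9:94157721-94157970): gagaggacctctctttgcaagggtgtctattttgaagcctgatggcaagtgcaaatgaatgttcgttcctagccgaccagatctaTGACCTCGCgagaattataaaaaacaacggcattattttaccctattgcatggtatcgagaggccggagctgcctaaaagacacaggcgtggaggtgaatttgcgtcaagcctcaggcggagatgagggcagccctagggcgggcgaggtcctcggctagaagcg
Psme4 (chr14:108706393-108706642): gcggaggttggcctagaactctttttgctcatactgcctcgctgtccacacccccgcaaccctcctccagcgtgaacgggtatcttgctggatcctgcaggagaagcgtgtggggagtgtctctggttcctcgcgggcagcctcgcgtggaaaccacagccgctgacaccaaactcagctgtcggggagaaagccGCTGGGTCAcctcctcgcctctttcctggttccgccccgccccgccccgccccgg
Psmb2 (chr5:144254808-144255057): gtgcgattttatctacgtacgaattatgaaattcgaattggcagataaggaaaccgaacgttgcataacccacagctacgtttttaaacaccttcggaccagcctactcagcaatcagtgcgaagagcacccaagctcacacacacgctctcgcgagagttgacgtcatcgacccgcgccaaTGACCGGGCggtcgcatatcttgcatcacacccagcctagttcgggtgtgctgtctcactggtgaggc

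The deposited values were signals on a linear scale, brought by the authors to a common trimmed mean on every array, and log2 differences were taken on log2(signal + 16). A difference of 1 on that scale is a doubling for bright probe sets and an understated one for dim probe sets. All p-values for genes are from limma, adjusted by Benjamini-Hochberg over the 18625 tested probe sets, and a gene was called at an adjusted p under 0.05. In pooled captured neurons, fewer cells that express a gene and less RNA of that gene per cell cannot be told apart. The number of arrays limits the precision.

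Both the non-regenerating array of MM17 and the not axotomised array of MM15 stood apart from the others before any comparison. Across the 39 genes the median signal was 216 on the non-regenerating MM17 array and 396 to 561 on the other 6 non-regenerating arrays. It was 217 on the MM15 array, against 415 and 426 on MM18 and MM19. The 3 prime to 5 prime signal ratio of the Gapdh control probe sets, a measure of how far the amplified RNA was shortened, was 10.0 on the MM17 and 11.7 on the MM15 array and 20.7 to 150 on the other arrays. The median correlation with other arrays was 0.847 for the MM17 array and 0.821 for the MM15 array.

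Of the 39 members, 30 were lower on both of these arrays than the mean of their group's other arrays (76.9%), against 34.5% of all tested probe sets and 50.4% of the brightest quartile, which held 20 of the 39 members. By more than 1 on the log2 scale on both, 12 members (30.8%) were lower, against 4.99% of all tested probe sets and 6.83% of the brightest quartile. The beta subunit Psmb7 differed by -2.96 on the log2 scale on the MM17 array and by -2.10 on the MM15 array. The ATPase Psmc1 differed by -1.89 on the MM17 array and by -2.08 on the MM15 array. The chaperone Psmd9 was 0.92 higher on the MM17 array and 0.90 higher on the MM15 array. At the members' brightest probe sets, values without these arrays are therefore given beside those that moved by over 1.5 times or changed sign when an array was left out. What sets the arrays apart was not tested.

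**Figure D1:**
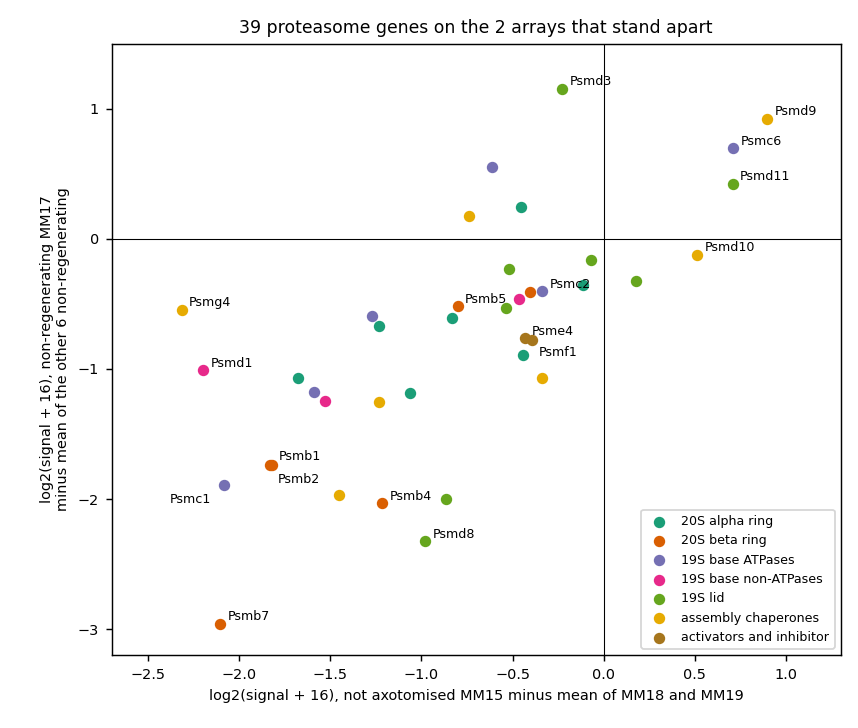
Log2 difference of each of the 39 genes on the not axotomised MM15 array (horizontal axis) and on the non-regenerating MM17 array (vertical axis) from the mean of the other arrays of the same group, coloured by role. Most points lie in the lower left, where 30 genes are lower on both arrays, and Psmb7 is the lowest point, at -2.96 on the vertical axis.

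Setting regenerating neurons against non-regenerating ones of the same 7 animals addresses which genes go with regeneration. No member was called, and the smallest adjusted p was 0.68. Of all tested probe sets, 0.0161% were called. By sign, 32 of the 39 members were higher in regenerating neurons, against 49.8% of all tested probe sets and 47.3% of the brightest quartile. The members' median difference was 0.21, with quartiles of 0.04 and 0.30, and the median of all tested probe sets was -0.00. An unadjusted p under 0.05 was reached by 6 members, all higher, where 4.26% of all probe sets were higher at that level.

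The inner ring of the core was higher in regenerating neurons for 6 of 6 beta genes, with a median difference of 0.30, and of 0.12 without animal MM17. Psmb7, the subunit with trypsin-like activity, had signals of 624, 1195 and 1962 (lowest, median and highest) in regenerating neurons and 127, 1067 and 1802 in non-regenerating neurons. The ranges overlapped, and the lowest non-regenerating value, that of MM17, was far below the rest. Psmb7 differed by 0.51 (SE 0.22, unadjusted p = 0.036 and adjusted p = 0.68 in limma), which is the upper end of the list, and was higher in 5 of 7 animals. Without animal MM17 the difference was 0.23. Psmb5, which carries the chymotrypsin-like activity, had signals of 856, 1542 and 2048 in regenerating neurons and 925, 1399 and 1725 in non-regenerating neurons, with ranges that overlapped almost fully. Its difference was 0.10, with a 95% confidence interval of -0.14 to 0.35 in limma, and 0.14 without MM17. The noncatalytic beta genes Psmb1, Psmb2, Psmb3 and Psmb4 differed by 0.31, 0.28, 0.23 and 0.35. Without MM17 Psmb1, Psmb2 and Psmb4 differed by 0.11, 0.10 and 0.085, while Psmb3 stayed at 0.23.

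Of the 7 alpha genes, which form the gated outer ring, 5 were higher in regenerating neurons and the median difference was 0.21. Without animal MM17, 4 were higher, with a median of 0.13. Psma5 had signals of 614, 801 and 1363 in regenerating neurons and 336, 791 and 930 in non-regenerating neurons. Its medians were close and its ranges overlapped, and its difference of 0.34 (SE 0.15, adjusted p = 0.70 in limma) was 0.19 without animal MM17. Psma3 lay on the other side of 0, with signals of 373, 506 and 648 in regenerating neurons and 434, 534 and 663 in non-regenerating neurons. It differed by -0.07 (SE 0.13) and was higher in 4 of 7 animals. The other alpha genes Psma1, Psma2, Psma4, Psma6 and Psma7 differed by -0.04, 0.13, 0.21, 0.21 and 0.29. Without MM17 the differences of Psma1 and Psma2 were -0.079 and -0.017, that of Psma6 was 0.13, and those of Psma4 and Psma7 were 0.16 and 0.29.

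Among the base subunits, Psmd1, the large scaffold of the cap, had the smallest unadjusted p of all members (0.024, adjusted p = 0.68 in limma). Its signals were 81.7, 173 and 253 in regenerating neurons and 51.4, 98.4 and 257 in non-regenerating neurons. It was higher in 6 of 7 animals and lower in MM11, and the ranges overlapped. The difference was 0.48 (SE 0.19), and 0.31 without animal MM17. The ATPase Psmc1 had signals of 337, 1054 and 1307 in regenerating neurons and 178, 778 and 1288 in non-regenerating neurons. Its difference of 0.42 (SE 0.20) came with only 4 of 7 animals higher and was 0.19 without MM17. Of the 6 ATPases 5 were higher, with a median of 0.17, and Psmc2 differed by -0.01. The ATPases Psmc3, Psmc4, Psmc5 and Psmc6 differed by 0.31, 0.21, 0.12 and 0.03. Without MM17 the median of the ATPases was 0.13, with 5 of 6 again higher, and Psmc2, Psmc5 and Psmc6 differed by -0.059, 0.025 and 0.069. The scaffold subunit Psmd2 differed by 0.16. Psmd4, a ubiquitin receptor of the base, differed by 0.28, with 0.62 over the MM animals and -0.56 over the MOON animals, and by 0.12 without MM17.

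The lid had the lowest median of the role groups, 0.04, with 6 of 8 genes higher. Without animal MM17 it was 0.007, with 5 of 8 higher. Psmd11, a lid scaffold subunit, was at the lower end of the list, with signals of 1214, 1567 and 2468 in regenerating neurons and 1294, 2046 and 2418 in non-regenerating neurons. The ranges overlapped almost fully, and the difference was -0.14 (SE 0.14), and -0.053 without MM17. Psmd3 had 53.8, 119 and 170 in regenerating neurons and 52.7, 132 and 246 in non-regenerating neurons, where the highest value was again MM17. It differed by -0.13 (SE 0.17), and by 0.01 without animal MM17. Psmd14, the deubiquitinase of the lid, differed by 0.07 at its brightest probe set, and by -0.007 without MM17. The lid subunits Psmd6, Psmd7, Psmd8, Psmd12 and Psmd13 differed by 0.29, 0.05, 0.26, 0.01 and 0.03. Without MM17 Psmd6 and Psmd8, both far lower on its non-regenerating array than on the others, differed by 0.11 and 0.003. Psmd7, Psmd12 and Psmd13 then differed by 0.095, -0.040 and 0.062.

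Assembly factors were higher in regenerating neurons for 6 of 7 genes, with a median of 0.26, and without animal MM17 for 7 of 7, with a median of 0.15. Psmd5, a chaperone of the base, had signals of 319, 482 and 882 in regenerating neurons and 104, 447 and 543 in non-regenerating neurons. The lowest non-regenerating value was that of MM17, and the ranges overlapped. The difference was 0.41 (SE 0.18, adjusted p = 0.69 in limma) and 0.23 without MM17. Psmd9, another base chaperone, was the exception, with 36.5, 52.7 and 61.7 in regenerating neurons and 31.8, 49.2 and 109 in non-regenerating neurons. Its difference of -0.12 (SE 0.20) was 0.01 without MM17. The base chaperone Psmd10 and the core chaperones Psmg1, Psmg2, Psmg3 and Psmg4 differed by 0.13, 0.26, 0.26, 0.32 and 0.19. Without MM17 Psmg1 and Psmg4 differed by 0.11 and 0.053, and Psmd10, Psmg2 and Psmg3 by 0.15, 0.28 and 0.22. Psmf1, the proteasome inhibitor PI31, which also serves as an adaptor for axonal transport of proteasomes in fly and mouse neurons, had signals of 221, 258 and 457 in regenerating neurons and 134, 224 and 310 in non-regenerating neurons. It differed by 0.38 (SE 0.17, adjusted p = 0.69 in limma) and was higher in 5 of 7 animals, and without MM17 the difference was 0.33.

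The regenerating and non-regenerating ranges overlapped for all 39 genes, and they were apart for 0.0215% of tested probe sets. No gene was higher in all 7 animals or lower in all 7, against 1.12% of tested probe sets higher and 0.966% lower. In 6 of 7 animals 9 of the 39 genes were higher, against 7.39% of probe sets in 6 or 7 animals. These 9 genes were Psma6, Psma7, Psmb3, Psmc3, Psmd1, Psmd5, Psmd10, Psmg1 and Psmg2.

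The members' difference varied between animals. Its median was 0.54 in MM17, 0.39 in MM14, 0.27 in MM13 and 0.26 in MM16, with 30 to 32 of 39 genes higher in each. MOON265 had a median of 0.05 with 22 genes higher. MOON266 had -0.10 with 11 genes higher, and MM11 had -0.16 with 14 genes higher. The brightest quartile of all tested probe sets had medians of 0.14 in MM17, -0.15 in MM14, -0.06 in MM13 and 0.11 in MM16. It had 0.03 in MOON265, -0.02 in MOON266 and -0.12 in MM11, the last close to the members' median there. Over the 5 MM animals the members' median was 0.30, and over the 2 MOON animals it was -0.052 with 15 of 39 genes higher. What the name prefixes stand for is not given, and no member's difference between the prefixes passed an interaction test in limma (smallest unadjusted p 0.013 for Psmf1, adjusted p = 0.91). Without animal MM17 the median over the list was 0.11, with 31 of 39 genes still higher and 0 at an unadjusted p under 0.05.

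**Figure D2:**
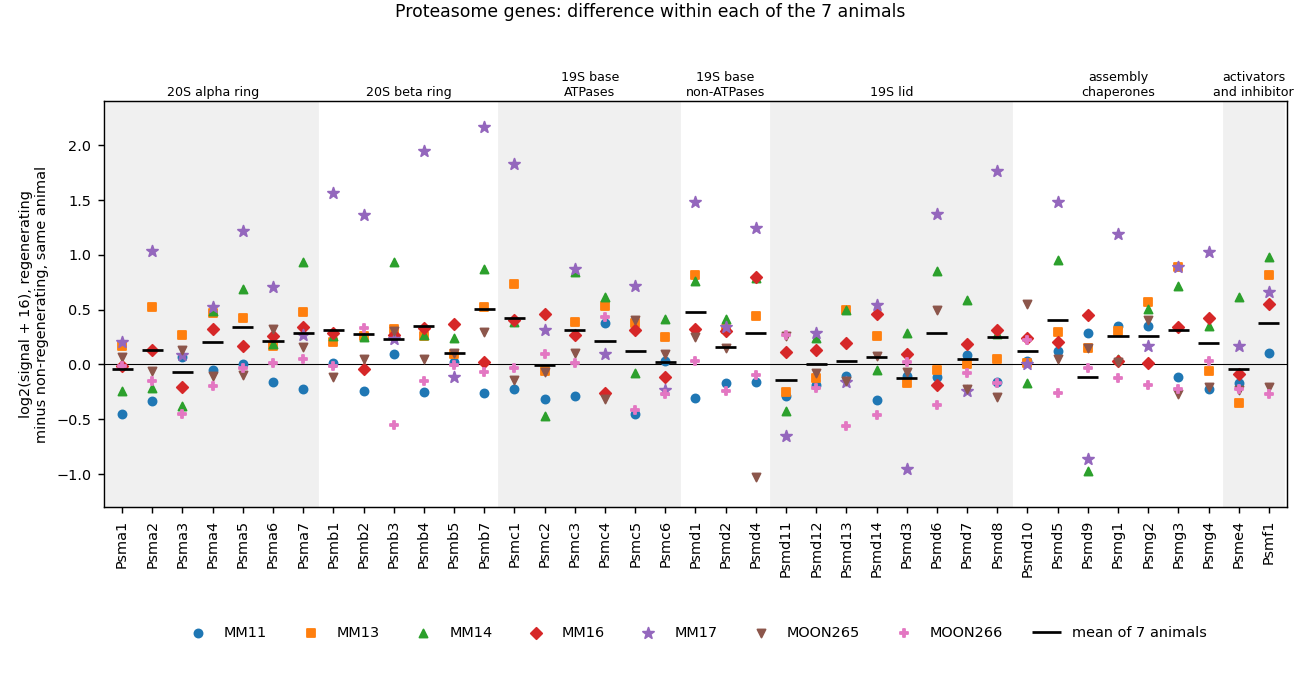
Regenerating minus non-regenerating log2 difference of the 39 genes, by role, with 1 symbol per animal and a bar at the mean of the 7. The beta ring and Psmd1 lie mostly above 0, the lid genes scatter about 0, and several of the farthest points belong to animal MM17, as for Psmb7 at 2.16.

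**Figure D3:**
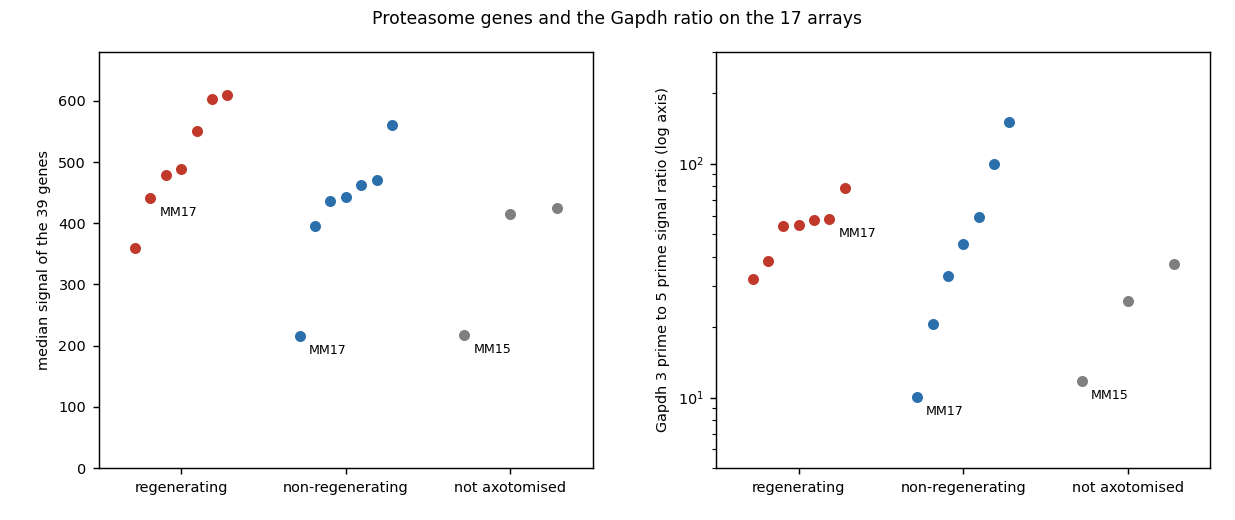
Median signal of the 39 genes (left, linear axis) and 3 prime to 5 prime signal ratio of Gapdh (right, logarithmic axis) on each of the 17 arrays, by group, with points sorted by value. In the left panel the non-regenerating MM17 array at 216 and the not axotomised MM15 array at 217 lie far below the others, and in the right panel they have the lowest ratios, 10.0 and 11.7.

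The 3 prime to 5 prime ratio of Gapdh did not differ detectably between the paired groups, with a mean log2 difference of 0.26 (exact sign-flip test over 7 pairs, two-sided p = 0.656). It was 2.53 higher on the regenerating than on the non-regenerating array of MM17 and -1.96 in MM14, on the log2 scale. With the ratio as a covariate the members' median was 0.18 and 31 of 39 genes were higher. The 5 motor neuron markers had a median of 0.90 in the same comparison and 4 of them were higher. All 4 reached an unadjusted limma p under 0.05, where 4.26% of all probe sets were higher at that level, and 0 were called. The 5 microglia markers had a median of 0.13, with 1 higher at that level. The part of these markers in the member values was not tested.

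The response to axotomy is addressed by setting non-regenerating neurons against traced neurons of other animals. No member was called here either, with a smallest adjusted p of 0.47, against 0.043% of all tested probe sets. By sign, 30 of 39 members were higher in non-regenerating neurons, where 38.8% of all probe sets and 64% of the brightest quartile were higher. The median difference was 0.24, with quartiles of 0.05 and 0.44, against -0.12 for all probe sets and 0.10 for the brightest quartile. An unadjusted p under 0.05 was reached by 1 member, Psme4, against 10.3% of all probe sets. The direction of the list rested on 1 array. Without MM15 the members' median was -0.084 and 14 of 39 were higher, against 33% of all probe sets. Without both arrays that stood apart it was 0.04, with 21 of 39 higher.

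Regenerating neurons were set against the same 3 not axotomised samples, so these values share their arrays with the comparison before and are no independent repeat of it. The members' median was 0.39, with quartiles of 0.06 and 0.74, and 33 of 39 were higher, against 40.8% of all probe sets and 59.0% of the brightest quartile. No member was called, against 0.215% of all probe sets, and the smallest adjusted p was 0.09, for Psmf1. An unadjusted p under 0.05 was reached by 9 higher members and 1 lower one, where 5.98% of all probe sets were higher and 17.6% were lower at that level. Without MM15 the median was 0.11, with 24 of 39 higher and 2 members at an unadjusted p under 0.05.

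Psme4, the PA200 activator that caps the core and opens its gate, had the largest difference between non-regenerating and not axotomised neurons. Its signals were 441, 541 and 960 in regenerating neurons, 390, 621 and 911 in non-regenerating neurons and 285, 368 and 413 in the 3 not axotomised samples. Regenerating values lay above all not axotomised ones, and the lowest non-regenerating value, that of MM17, lay within them. Relative to traced neurons, Psme4 was 0.80 higher in non-regenerating ones (SE 0.26, unadjusted p = 0.008 and adjusted p = 0.47 in limma). In regenerating ones it was 0.76 higher (SE 0.27, adjusted p = 0.11 in limma). Without MM15 the difference was 0.65 for non-regenerating and 0.62 for regenerating neurons. Between regenerating and non-regenerating neurons Psme4 differed by -0.04, with a 95% confidence interval of -0.32 to 0.24 in limma, and by -0.072 without animal MM17.

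A second bright probe set of Psme4 averaged 597 ± 102 in regenerating neurons, 576 ± 128 in non-regenerating neurons and 336 ± 87.0 in traced neurons (SD, n = 7, 7 and 3). Its differences from not axotomised neurons were 0.75 for non-regenerating and 0.82 for regenerating ones. The dimmest of the 3 probe sets gave 0.45 for non-regenerating and 0.44 for regenerating neurons. All 3 probe sets of Psme4 thus gave higher values in both axotomised groups than in traced neurons. Over the alternatives tried, the difference at the brightest probe set stayed between 0.62 and 1.16 for non-regenerating and between 0.57 and 1.15 for regenerating neurons.

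Psmf1 was the other gene of the activator and inhibitor group. Its signals were 221, 258 and 457 in regenerating neurons, against 130, 145 and 214 in the not axotomised samples, and these ranges did not overlap. Psmf1 was 0.82 higher in regenerating neurons (SE 0.26, adjusted p = 0.09 in limma) and 0.68 higher without MM15. In non-regenerating neurons, where the range of 134 to 310 overlapped that of the not axotomised samples, it was 0.44 higher (SE 0.29) and 0.31 higher without MM15. Psmg1, a chaperone that pairs with Psmg2 to build the alpha ring, also did not overlap, with 457, 532 and 754 in regenerating neurons against 179, 441 and 444 in not axotomised samples. Its difference of 0.77 was 0.35 without MM15, and its closest values on both sides were 457 and 444. These were the only 3 members whose regenerating and not axotomised ranges were apart, all higher, against 2.35% of all tested probe sets. Between non-regenerating and not axotomised neurons 0 members were apart, against 2.56% of all tested probe sets.

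**Figure D4:**
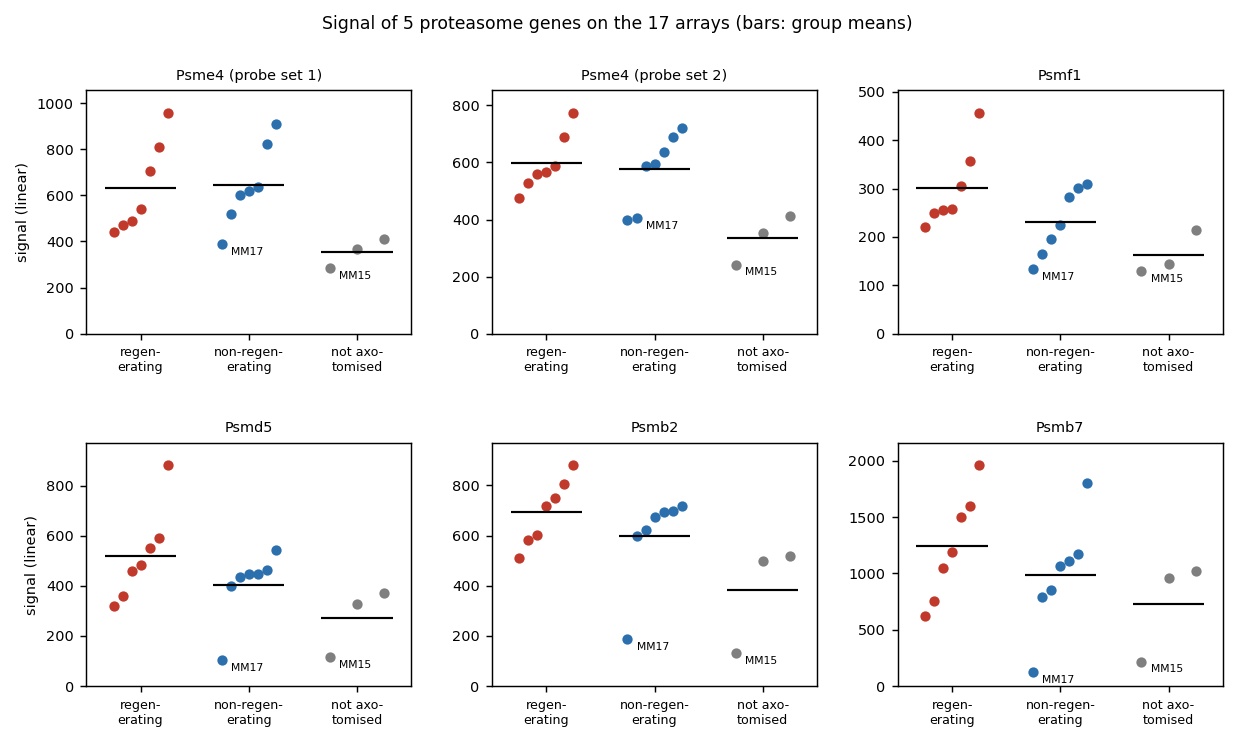
Signal of each array, on a linear axis from 0, for 5 genes in regenerating, non-regenerating and not axotomised neurons, with points sorted by value and a bar at each group's mean. Psme4 is shown at its 2 brightest probe sets. For Psme4 and Psmf1 the regenerating values lie above all 3 not axotomised values, while for Psmb7 the MM17 and MM15 arrays lie far below their groups.

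The beta ring was higher in both axotomised groups than in not axotomised neurons for 6 of 6 genes, with medians of 0.68 for regenerating and 0.34 for non-regenerating neurons. Without MM15 it was higher for 6 of 6 genes in regenerating neurons, with a median of 0.18, but for 1 of 6, Psmb2, in non-regenerating neurons, with a median of -0.11. Without both arrays that stood apart 5 of 6 were higher in non-regenerating neurons, with a median of 0.11. Psmb2 had signals of 510, 717 and 881 in regenerating neurons, 188, 674 and 719 in non-regenerating neurons and 132, 499 and 517 in not axotomised samples. The lowest values were those of MM17 and MM15, and the regenerating range touched the not axotomised one only at its lower end. Psmb2 was 1.02 higher in regenerating (SE 0.35, adjusted p = 0.10 in limma) and 0.74 higher in non-regenerating neurons (SE 0.44), and without MM15 the differences were 0.41 in regenerating and 0.13 in non-regenerating neurons. Psmb7 was 0.93 higher in regenerating and 0.42 higher in non-regenerating neurons, with not axotomised signals of 217, 957 and 1018. Without MM15 Psmb7 differed by 0.23 in regenerating and by -0.28 in non-regenerating neurons, and without the MM17 array it was 0.85 higher in non-regenerating neurons. Psmb5 was 0.34 higher in regenerating and 0.24 higher in non-regenerating neurons, with not axotomised signals of 735, 1282 and 1302. Without MM15 these differences of Psmb5 were 0.07 in regenerating and -0.03 in non-regenerating neurons. Psmb1, Psmb3 and Psmb4 were 0.76, 0.30 and 0.61 higher in regenerating and 0.44, 0.07 and 0.25 higher in non-regenerating neurons. Without MM15 they differed by 0.15, 0.17 and 0.20 in regenerating and by -0.16, -0.061 and -0.15 in non-regenerating neurons. Without the MM17 array they were 0.69, 0.13 and 0.55 higher in non-regenerating neurons. Leaving out that array gave medians in non-regenerating neurons of 0.62 for the beta ring, 0.26 for the alpha ring and 0.26 for the ATPases, with 6 of 6, 5 of 7 and 4 of 6 genes higher.

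Of the 7 alpha genes 5 were higher in each axotomised group than in traced neurons, with medians of 0.37 for regenerating and 0.16 for non-regenerating neurons. Without MM15, 3 of 7 were higher in regenerating neurons (median -0.040) and 2 of 7 in non-regenerating neurons (median -0.10). Psma5 had not axotomised signals of 296, 612 and 656. It was 0.83 higher in regenerating neurons (SE 0.30, adjusted p = 0.12 in limma) and 0.48 higher in non-regenerating neurons. Without MM15 Psma5 differed by 0.47 in regenerating and by 0.13 in non-regenerating neurons. Psma2 had signals of 237, 288 and 359 in regenerating neurons, 133, 303 and 329 in non-regenerating neurons and 67.3, 193 and 324 in not axotomised samples. The not axotomised samples spanned the others, and the differences of 0.76 in regenerating and 0.63 in non-regenerating neurons became 0.20 in regenerating and 0.07 in non-regenerating neurons without MM15. Psma7 went the other way, with 332, 668 and 877 in regenerating neurons, 319, 491 and 820 in non-regenerating neurons and 514, 685 and 735 in not axotomised samples. It differed by -0.13 in regenerating and by -0.41 (SE 0.27) in non-regenerating neurons, and without MM15 by -0.28 in regenerating and -0.56 in non-regenerating neurons. Psma3 differed by -0.14 in regenerating and -0.07 in non-regenerating neurons, from not axotomised signals of 537, 550 and 617. Without MM15 it differed by -0.18 in regenerating and -0.11 in non-regenerating neurons, and without the MM17 array by -0.017 in non-regenerating neurons.

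The ATPases had medians of 0.28 for regenerating neurons, with 5 of 6 higher than in traced neurons, and 0.13 for non-regenerating neurons, with 4 of 6 higher. Without MM15, 2 of 6 were higher in regenerating neurons (median -0.035) and 1 of 6 in non-regenerating neurons (median -0.28). Psmc1 was 0.70 higher in regenerating and 0.27 higher in non-regenerating neurons, from not axotomised signals of 173, 754 and 812. Without MM15 Psmc1 differed by 0.00 in regenerating and by -0.42 in non-regenerating neurons, and without the MM17 array it was 0.54 higher in non-regenerating neurons. The base scaffold Psmd1 was 0.84 higher in regenerating and 0.36 higher in non-regenerating neurons, from not axotomised signals of 18.8, 138 and 150. The lowest was again MM15, and without it Psmd1 differed by 0.10 in regenerating and by -0.38 in non-regenerating neurons.

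In the lid 7 of 8 genes were higher in each axotomised group, with medians of 0.21 for regenerating and 0.17 for non-regenerating neurons. Without MM15 the lid medians were 0.22 for regenerating neurons, with 6 of 8 higher, and 0.095 for non-regenerating neurons, with 5 of 8 higher. Psmd7, the lid partner of the deubiquitinase, had signals of 187, 349 and 557 in regenerating neurons, 197, 305 and 469 in non-regenerating neurons and 169, 232 and 242 in not axotomised samples. It was 0.52 higher in regenerating and 0.47 higher (SE 0.27) in non-regenerating neurons, with overlapping ranges, and without MM15 the values were 0.58 for regenerating and 0.53 for non-regenerating neurons. Psmd3 had lower values in both, differing by -0.53 (SE 0.31) in regenerating and -0.41 in non-regenerating neurons, from not axotomised signals of 141, 167 and 170. The ATPase Psmc6 had signals of 325, 464 and 609 in regenerating neurons, 352, 431 and 721 in non-regenerating neurons and 483, 513 and 825 in not axotomised samples, and the highest value in each of the last 2 groups was the array that stood apart. Psmc6 differed by -0.29 in regenerating and by -0.31 in non-regenerating neurons at this probe set, and without MM15 by -0.050 in regenerating and -0.075 in non-regenerating neurons. At another probe set Psmc6 differed by 0.22 in regenerating and 0.18 in non-regenerating neurons. At the dimmest of its 3 probe sets it was 0.79 higher in regenerating and 0.50 higher in non-regenerating neurons.

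Psmd14 also disagreed between probe sets. Its brightest differed by 0.19 in regenerating and 0.11 in non-regenerating neurons against not axotomised ones. Without MM15 these values were 0.007 in regenerating and -0.065 in non-regenerating neurons, and without the MM17 array 0.19 in non-regenerating neurons. Another probe set differed by 1.16 in regenerating and 0.87 in non-regenerating neurons. The dimmest differed by -1.07 in regenerating and -1.23 in non-regenerating neurons. With all arrays kept, the direction of Psmd14 and of Psmc6 against not axotomised neurons differed between probe sets. The 2 dimmer probe sets of Psmc6 had not axotomised signals of 308, 471 and 478, and of 97.7, 311 and 321. Their differences thus include a low not axotomised value. Values without MM15 are given only for the brightest probe set of each gene. Of the 3 genes with 3 tested probe sets, only Psme4 had the same sign at all of them.

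Of the 7 assembly chaperones 5 were higher in regenerating and 4 in non-regenerating than in traced neurons, with medians of 0.47 for regenerating and 0.34 for non-regenerating neurons. Without MM15, 3 of 7 were higher in each, with medians of -0.071 for regenerating and -0.23 for non-regenerating neurons. Psmd5 was 0.97 higher in regenerating and 0.57 higher in non-regenerating neurons, from not axotomised signals of 117, 329 and 371, and without MM15 it was 0.49 higher in regenerating and 0.08 higher in non-regenerating neurons. Psmd10 (gankyrin), a base chaperone, had signals of 1090, 1250 and 1553 in regenerating neurons, 970, 1184 and 1428 in non-regenerating neurons and 761, 876 and 1171 in not axotomised samples. Its differences were 0.47 in regenerating and 0.34 in non-regenerating neurons, and without MM15, which held its highest not axotomised value, 0.64 in regenerating and 0.51 in non-regenerating neurons. Psmg2 differed by -0.16 in regenerating and by -0.42 (SE 0.30) in non-regenerating neurons, from signals of 98.8, 214 and 248 in regenerating neurons, 88, 169 and 236 in non-regenerating neurons and 144, 244 and 258 in not axotomised samples. The lowest of these was MM15, and without it Psmg2 differed by -0.41 in regenerating and by -0.67 in non-regenerating neurons. Psmd9 was at the lower end of the list in both comparisons, at -0.65 (SE 0.27, unadjusted p = 0.030 and adjusted p = 0.16 in limma) in regenerating and -0.53 (SE 0.35) in non-regenerating neurons. Its not axotomised signals were 55.3, 84.6 and 142, the last from MM15, and without that array the differences were -0.35 in regenerating and -0.23 in non-regenerating neurons. A second probe set of Psmd9 gave 0.05 in regenerating and -0.12 in non-regenerating neurons.

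**Figure D5:**
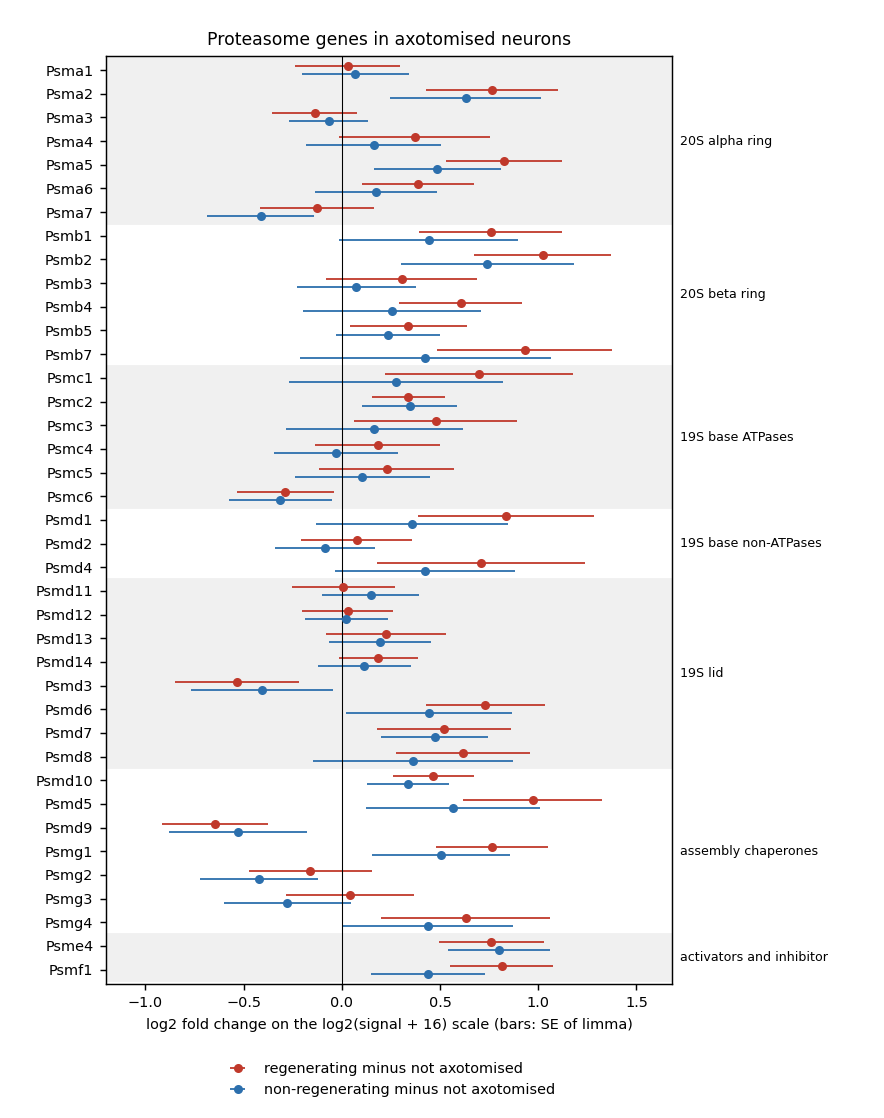
Log2 difference from not axotomised neurons of the 39 genes, by role, for regenerating and for non-regenerating neurons, with bars of 1 SE. Both columns use the same 3 not axotomised samples. Psmb2 at 1.02 and Psmd9 at -0.65 are the ends for regenerating neurons, and Psme4 at 0.80 and Psmd9 at -0.53 those for non-regenerating neurons.

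Markers of several cell types, and in regenerating samples the Gapdh ratio, also differed from not axotomised neurons. The Gapdh ratio was 1.19 higher on the log2 scale in regenerating than in not axotomised samples (exact permutation test, two-sided p = 0.017) and 0.93 higher in non-regenerating samples (exact permutation test, two-sided p = 0.308), where the smallest p the design allows is 0.008. With the ratio as a covariate the members' median was 0.28 in regenerating and 0.09 in non-regenerating neurons. Of 8 microglia markers 5 were bright enough to test, and their summed signal was 5610 to 8874 in regenerating neurons, 5094 to 7967 in non-regenerating neurons and 2745 to 3346 in traced neurons. All 5 were higher in both axotomised groups, with medians of 1.52 in regenerating and 1.38 in non-regenerating neurons, and C1qa and Laptm5 were called in regenerating neurons. The 6 astrocyte markers had medians of 0.42 in regenerating and 0.44 in non-regenerating neurons, and Gfap was called in regenerating neurons. The 5 motor neuron markers summed to 658 to 2400 in regenerating, 417 to 725 in non-regenerating and 408 to 583 in traced neurons, with medians of 1.21 in regenerating and 0.17 in non-regenerating neurons. Unadjusted limma p-values under 0.05 were reached by 3 of them as higher and by 1 as lower in regenerating neurons. Of the 4 endothelial markers 3 were lower in each axotomised group, with medians of -0.73 in regenerating and -0.55 in non-regenerating neurons and sums of 978 to 2433 in regenerating, 895 to 2021 in non-regenerating and 1323 to 1753 in traced neurons. The 10 neuron markers had medians of -0.23 in regenerating and -0.09 in non-regenerating neurons, and 8 of them were lower in each. The 5 tested oligodendrocyte markers had medians of -0.01 in regenerating and -0.04 in non-regenerating neurons. The part of these cells and of RNA shortening in the member values was not tested.

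Among the genes left out by the rule, the inducible subunits had higher mean signals in both axotomised groups than in traced neurons. Psmb8, an inducible catalytic subunit of the immunoproteasome, had signals of 51.7, 115 and 271 in regenerating neurons, 85.3, 118 and 163 in non-regenerating neurons and 32.7, 51.1 and 65.2 in not axotomised samples. The non-regenerating range of Psmb8 lay above the not axotomised one, with a difference of 1.03. Psmb10, another inducible subunit, was 0.74 higher in regenerating and 0.55 higher in non-regenerating neurons, and both ranges lay above that of the not axotomised samples. Of all tested probe sets, 2.35% had a regenerating range above the not axotomised one. Non-regenerating and not axotomised ranges were apart, in either direction, for 2.56%. Values without MM15 are not given for the genes left out by the rule. Psmb9 was near the floor in not axotomised samples, at 4 to 13.6. The PA28 gene Psme1 differed by 0.39 in regenerating and 0.43 in non-regenerating neurons, and Psme2 by -0.39 in regenerating and -0.42 in non-regenerating neurons. A dimmer probe set of Psme1 differed by -1.24 in regenerating and -0.97 in non-regenerating neurons. None of these genes was called.

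Of the 52 names in the ubiquitin pathway list, 42 were on the array and 40 were tested. In regenerating against non-regenerating neurons 18 were higher and 22 lower, with a median of -0.03, and 0 were called. The deubiquitinase Uchl5, which binds the 19S cap, was 0.39 higher (SE 0.15, adjusted p = 0.68 in limma). The ubiquitin ligase Stub1 was 0.42 higher, the segregase Vcp 0.31 higher, and Ufd1, a cofactor of Vcp, differed by -0.44.

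Against not axotomised neurons the list was evenly split. In regenerating neurons 21 were higher and 19 lower (median 0.02), and in non-regenerating neurons 21 were higher and 19 lower (median 0.01), with 0 called in either. Uchl5 was 0.91 higher in regenerating neurons (SE 0.29, adjusted p = 0.09 in limma) and the conjugating enzyme Ube2a 0.51 higher. Adrm1, a ubiquitin receptor of the 19S cap whose symbol the member rule does not match, differed by -0.67 there, and Ddi2, a protease that cleaves Nfe2l1, by -0.74. In non-regenerating neurons Ngly1, which removes sugars from Nfe2l1, was 0.64 higher, the conjugating enzyme Ube2b 0.49 higher, the ligase Ube3a 0.54 higher, and Ddi2 differed by -0.59. None of these genes passed the adjusted threshold. All differences of ubiquitin genes include the MM17 and MM15 arrays, and values without them are not given.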

How the data were processed

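Linear signal intensity of each probe set was used as deposited by the authors, who made it with GCOS, per the submitters' processing notes (version not given in the sources used here). Arrays already shared a mean trimmed by 2% at each end. From the deposited signal, log2(signal + 16) was computed here, 16 being the 25th percentile of all signals. The 57 control probe sets and 12417 below the 40th percentile were left out, and 18625 were tested. Of the probe sets of Psm genes, 6 had several symbols and were not named.

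Differences were tested in limma 3.58.1 (R 4.3.3, linear models with a trended prior, adjusted p under 0.05), with the animal as a block between paired groups. The same fits were also run on simulated arrays with known changes. Those arrays held no animal effect and no array that stands apart, so they do not test the differences given here. The labels name the animals, and deviations of paired samples correlated with r = 0.34 to 0.71. Replicates are separate animals. Identical array pairs numbered 0. Tables and plots used Python 3.11.15, pandas 2.3.3 and matplotlib 3.10.9.

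The members and lists were chosen with earlier results of these data known. Every member was counted by role. Values per sample were given, per comparison, for the 4 higher and 4 lower genes with the smallest p, for the catalytic genes, for the ends of the list, and for ubiquitin genes up to 4 by smallest p as differences only. Additions made with the values in view were Psmc1, Psmg1, Psmd10 and further probe sets.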

Additional observations from a re-analysis of the deposited data

Results flagged for a closer look

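Of 120 tests for a sample far from its group, 17 picked out a sample, each time MM17. Chance alone picks out about 1 in 20 groups, but these tests share the same arrays and are not independent. The 17 therefore cannot be set against that share. The flagged paired differences also include the non-regenerating MM17 array. On the non-regenerating array of MM17 the log2 signal was the lowest and far from the other 6 for Psma2 (7.21), Psma5 (8.46), Psmb1 (7.80), Psmb2 (7.67), Psmb4 (8.68), Psmb7 (7.16), Psmd5 (6.91), Psmd6 (6.92), Psmd8 (4.28) and Psmg1 (7.86), and for the median of the 39 genes (7.86). The regenerating minus non-regenerating difference of MM17 was far above those of the other 6 animals for Psmb1 (1.56), Psmb2 (1.37), Psmb4 (1.95), Psmd8 (1.77) and Psmg1 (1.19), and far below them for Psmd3 (-0.95). The same array had the lowest Gapdh ratio, 10.0.

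For Psma5, Psmb1 and Psmf1 the paired difference was above 0 in all 5 MM animals and below 0 in both MOON animals. The MOON minus MM difference was -0.56 for Psma5, -0.53 for Psmb1 and -0.86 for Psmf1. In limma's interaction test 0 members reached an adjusted p under 0.05 and 1 of all probe sets did. At an unadjusted p under 0.05 there were 3 members (7.69%), against 5.11% of all tested probe sets. What the name prefixes stand for was not given.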

How the results depend on the processing

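The count of called members was 0 under all 22 alternatives for regenerating against non-regenerating neurons. It became 4 with array weights for non-regenerating (Psmd7, Psmd10 and Psme4 higher, Psmg2 lower) and 4 for regenerating against not axotomised neurons (Psma5, Psmd7, Psmd10 and Psmf1), where the same weights called 2440 and 3131 of all probe sets. Centring each array on its median called 1 member, Psmf1, for regenerating against not axotomised neurons, where 350 of all 18625 tested probe sets were called. It moved the members' median against not axotomised neurons to 0.78 for regenerating and 0.60 for non-regenerating neurons. The median of all probe sets moved to 0.26 and 0.24. The median turned to -0.052 over the MOON animals alone and to -0.084 for non-regenerating neurons without MM15. Leaving out 1 animal at a time, with both its arrays, gave medians of 0.11 to 0.25 for regenerating against non-regenerating neurons, with 0 calls. Leaving out 1 array at a time gave medians of 0.11 to 0.54 for regenerating against not axotomised neurons. For non-regenerating against not axotomised neurons it gave -0.084 to 0.37, with 0 calls in either. Without the pairing, that is with no replicate block, the first median was 0.21 with 0 calls and 0 members at an unadjusted p under 0.05. Quantile normalization, other offsets and other filters kept each median's sign. The cause of each shift was not tested. Comparisons with traced neurons have only 3 animals, and 1 of their arrays stands apart. Of the 52 member probe sets, 4 were too dim to test.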
